A study of Mus musculus with 2 samples.

Results

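A set of 8 genes of epithelial oxidant chemistry was followed across the cell classes of mouse colon: Duox2, Duoxa2, Nox1, Noxo1, Cyba, Nos2, Lpo and Gpx2. They were taken by gene symbol from the gene list of the deposited count matrices, so the set held 8 of 31053 genes, and all 8 had UMIs in the kept cells of both libraries. Single-cell RNA sequencing had been done on 2 libraries, 1 per group. The library labelled GFP came from the colon of c-Kit-creERT2;Rosa26-mTG mice that received tamoxifen once, intraperitoneally, at 1 mg for every 20 g of weight. Its cells were sorted for GFP, the label of c-Kit+ cells and their progeny. The library labelled whole epithelium came from untreated c-Kit-creERT2 mice and was of whole colonic epithelium, so both groups carried the c-Kit-creERT2 allele. The injection, the reporter allele and the sort all separated them, and the number of animals and the time after tamoxifen are not given in the sources used here.

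DUOX2 and NOX1 are membrane NADPH oxidases of the colon epithelium. DUOX2 releases hydrogen peroxide at the apical surface and needs its maturation factor DUOXA2 to leave the endoplasmic reticulum, whereas NOX1 makes superoxide together with the membrane subunit p22phox, encoded by Cyba, the organizer NOXO1 and the activator NOXA1. Inducible nitric oxide synthase, encoded by Nos2, makes nitric oxide from arginine. Lactoperoxidase, encoded by Lpo, is a secreted haem peroxidase that uses hydrogen peroxide, and glutathione peroxidase 2, encoded by Gpx2, is an epithelial selenoenzyme that reduces it and is known from the crypt base.

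Duox2 (chr2:122279247-122298449, minus strand) and Duoxa2 (chr2:122298900-122302885, plus strand) lie head to head on chromosome 2, with 450 bases between their starts in the GENCODE annotation of GRCm38. The other members lie apart from each other: Nox1 at chrX:134086421-134221956 (minus), Noxo1 at chr17:24696234-24700529 (plus), Cyba at chr8:122424776-122432930 (minus), Nos2 at chr11:78920787-78960254 (plus), Lpo at chr11:87806428-87828289 (minus) and Gpx2 at chr12:76792333-76795554 (minus). The 250 bases before the RefSeq start are given here for 3 members, Duoxa2 as the partner of the head-to-head pair and Nox1 and Gpx2 as the pair that was highest in stem/TA-like cells. Each is written 5′ to 3′ on the strand of its gene, with motif matches in capitals.
Duoxa2, chr2:122298650-122298899, plus strand, GRCm38.p6: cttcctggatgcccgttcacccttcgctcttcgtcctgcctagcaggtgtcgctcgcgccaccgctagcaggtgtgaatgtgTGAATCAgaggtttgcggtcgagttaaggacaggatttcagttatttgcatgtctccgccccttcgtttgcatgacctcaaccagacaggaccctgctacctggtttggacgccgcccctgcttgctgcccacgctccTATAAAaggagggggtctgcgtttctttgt
Nox1, chrX:134111855-134112104, minus strand, GRCm38.p6: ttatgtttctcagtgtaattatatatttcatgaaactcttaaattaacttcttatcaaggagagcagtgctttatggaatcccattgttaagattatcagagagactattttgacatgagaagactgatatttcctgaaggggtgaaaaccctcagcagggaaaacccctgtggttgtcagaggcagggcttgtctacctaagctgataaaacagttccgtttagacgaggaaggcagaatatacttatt
Gpx2, chr12:76795555-76795804, minus strand, GRCm38.p6: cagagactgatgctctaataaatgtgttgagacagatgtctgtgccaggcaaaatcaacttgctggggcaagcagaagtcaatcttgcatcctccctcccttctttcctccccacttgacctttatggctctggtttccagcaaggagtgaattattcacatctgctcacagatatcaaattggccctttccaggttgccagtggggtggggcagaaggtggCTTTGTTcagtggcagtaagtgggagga
In all, 6 motifs were searched on both strands, and each share given is that of all 32851 RefSeq windows of the same length with a match. They were the TATA box TATAAA (12.4%), the AP-1 motif TGANTCA (6.75%), the TCF/LEF motif (CTTTGAA or CTTTGTA, and the same with a final T; 14.8%), the STAT motif TTCNNNGAA (7.02%), the GATA motif AGATAA (9.99%) and the IRF motif (2.98%). In capitals, the Duoxa2 window holds an AP-1 match 168 to 162 bases and a TATA box match 30 to 25 bases before the start. The Gpx2 window holds a TCF/LEF match 28 to 22 bases before the start, and the Nox1 window held no match. That Nox1 window precedes the RefSeq start only: it lies inside the GENCODE span of the gene, which starts at 134221956 on the minus strand. A window was at hand for 7 of the 8 members, none for Nos2, and the Duox2 window is not printed because GENCODE places a first exon of Duox2 in it.

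Of 13575 GFP barcodes (150348319 UMIs in all), 5767 were kept as cells, with a median of 15821 UMIs. Of 13967 whole-epithelium barcodes (164185392 UMIs), 7762 were kept, with a median of 14160 UMIs. The deposited matrices were crossed between the sample records and were assigned by the size of their barcode lists, so every direction between the groups rests on that assignment. Under it, Gt(ROSA)26Sor, at whose locus the mTG reporter sits, was at 1.14 CPM in GFP and 33.8 CPM in whole epithelium, and Kit was at 7.82 and 15.2 CPM. In all, 60 barcodes occurred in both libraries. Clustering without the 8 genes gave 30 clusters, 27 of them with over 95% of their cells from 1 library, so that each class is compared through different clusters in each library. Colonocyte-like cells numbered 1161 in GFP and 2410 in whole epithelium, goblet-like cells 939 and 1088, and stem/TA-like cells (stem or transit-amplifying) 933 and 2082. Enteroendocrine-like cells numbered 35 in GFP and 293 in whole epithelium, and 46.4% of GFP cells and 21.4% of whole-epithelium cells stayed unnamed. Against the other kept cells of their library, 14 of 16 colonocyte markers in GFP and 16 of 16 in whole epithelium were at least 2-fold higher in colonocyte-like cells. The same held for 19 and 21 of 22 goblet markers and for 16 and 19 of 24 stem and cycling markers. The clusters were named from these same markers, so the counts describe the classes and are no independent check of the names. The libraries differed in sex: Xist was at 750 CPM (the gene's UMIs divided by all UMIs of those cells, on the usual CPM scale) in GFP and 0.0652 CPM in whole epithelium, while the Y-linked Eif2s3y was at 0 and 42.6 CPM. Sex, allele, injection and sort cannot be told apart from the group. With 1 library per group there is no test between them: intervals are 95% limits of the counting error alone, and a gene was called apart at a ratio of at least 2-fold.

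Over all kept cells every member was higher in GFP than in whole epithelium, but by very different amounts. Lpo was at 208 CPM in GFP and 23.2 CPM in whole epithelium (log2 ratio 3.16), Nos2 at 17.1 and 2.57 CPM (2.73) and Nox1 at 42.5 and 7.88 CPM (2.43). Duoxa2 was at 66.8 CPM in GFP and 28.2 CPM in whole epithelium (1.24). These 4 of the 8 members were past 2-fold, where 3.97% of the 15223 genes with at least 20 UMIs were at least 2-fold higher in GFP. Duox2 (93.4 and 50.7 CPM, log2 ratio 0.88), Gpx2 (1239 and 756 CPM, 0.71), Cyba (242 and 167 CPM, 0.54) and Noxo1 (122 and 106 CPM, 0.21) were higher in GFP by less than that. The median log2 ratio of the 8 members was 1.06, beside -0.03 over all genes tested.

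**Figure D1:**
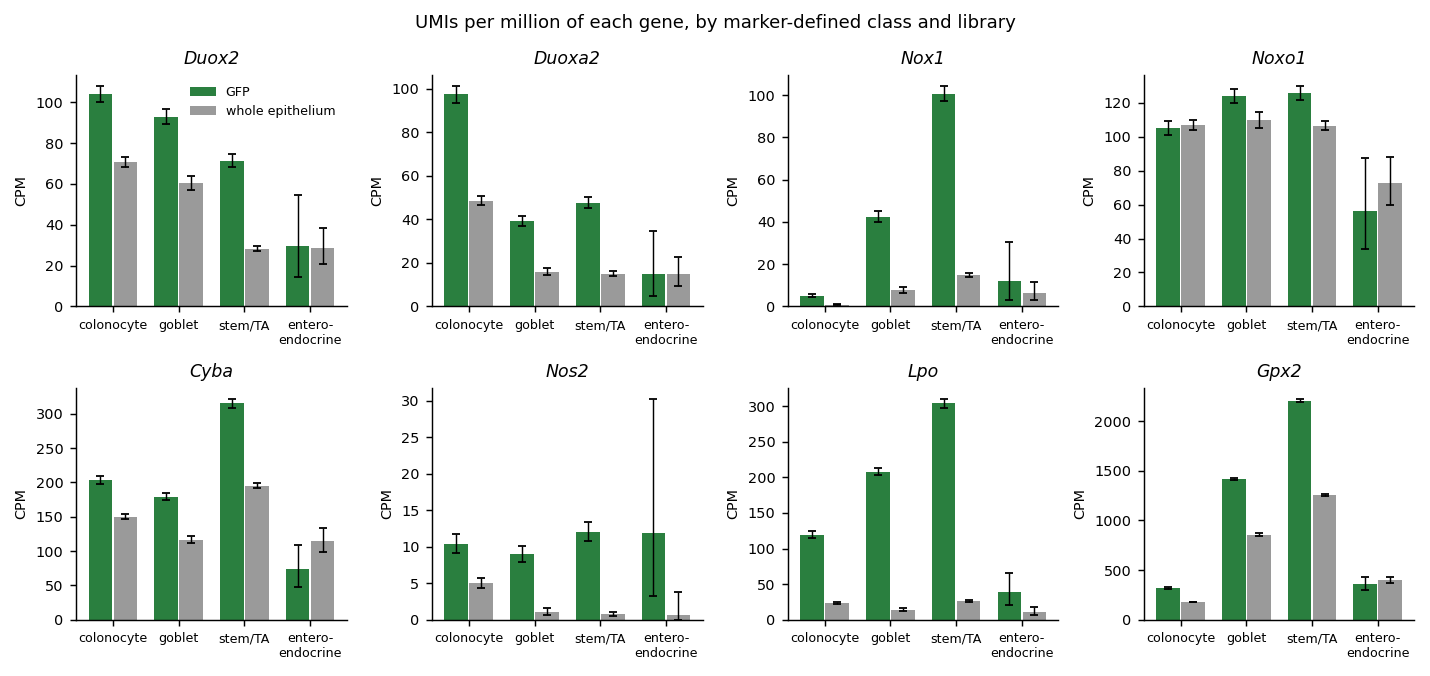
CPM of each of the 8 genes in 4 marker-defined classes, with GFP in green and whole epithelium in grey; error bars are 95% Poisson limits of the counting error. Duox2 and Duoxa2 stood highest in colonocyte-like cells and Nox1 and Gpx2 in stem/TA-like cells of both libraries, and Lpo was at 303.7 CPM in GFP against 25.9 CPM in whole-epithelium stem/TA-like cells.

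Of the named classes, Duox2, the apical peroxide-forming oxidase, was highest in colonocyte-like cells. It was at 104.1 CPM there in GFP (interval 100.1 to 108.2) and 70.8 CPM in whole epithelium (68.5 to 73.2), a log2 ratio of 0.56. Goblet-like cells followed, with 93.0 CPM in GFP and 60.4 CPM in whole epithelium (0.62), and stem/TA-like cells had 71.5 and 28.3 CPM (1.34). The intervals of these 3 classes did not overlap within either library. In whole epithelium, enteroendocrine-like cells (28.6 CPM) were not apart from stem/TA-like cells. The GFP-over-whole ratio was larger in stem/TA-like than in colonocyte-like cells by 0.78 on the log2 scale, with limits from counting of 0.66 and 0.90 on that difference. Its direction rests on 1 cluster of whole epithelium, c6: without it the colonocyte-like log2 ratio was 1.63, above the stem/TA-like 1.34.

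Duoxa2, the maturation factor, had the same highest class: 97.4 CPM in GFP and 48.4 CPM in whole-epithelium colonocyte-like cells (log2 ratio 1.01). It was at 47.5 CPM in GFP and 15.0 CPM in whole-epithelium stem/TA-like cells (1.66), and at 39.3 and 15.9 CPM in goblet-like cells (1.30). In whole epithelium the goblet-like, stem/TA-like and enteroendocrine-like levels (15.0 CPM in the last) were not apart from each other. Duoxa1, the neighbouring factor of DUOX1, overlaps Duoxa2 on the opposite strand, but was at only 0.544 CPM in GFP and 0.145 CPM in whole epithelium, and Duox1 was at 0.0829 and 0.116 CPM.

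Within colonocyte-like cells the levels of Duox2 and Duoxa2 were uneven between clusters. In GFP, the larger cluster c3 (847 cells, led by Pmp22 and the brush-border gene Tmigd1) had 122 CPM of Duox2 and 117 CPM of Duoxa2, and cluster c18 (314 cells, led by Car1 and Cyp2c55) had 58.7 and 48.5 CPM. In whole epithelium, cluster c6 (717 cells) alone had 321 CPM of Duox2 and 260 CPM of Duoxa2, whereas c5, c10 and c15 had 31.5, 37.5 and 32.4 CPM of Duox2 and 17.1, 16.7 and 18.1 CPM of Duoxa2. The whole-epithelium colonocyte-like level thus averaged 1 high and 3 low clusters. The genes leading c6 included Tmigd1 and the interferon-responsive Ubd, Ifit2 and Gbp2. Its cells were low in UMIs and high in mitochondrial RNA (medians of 6552 UMIs and 19.3%), though c6 was not among the clusters called shallow. The part of depth and RNA quality in its Duox2 level was not tested. Without c6, the colonocyte-like log2 ratio of Duoxa2 was 2.51 instead of 1.01. The class with most Duox2 in whole epithelium was then goblet-like, as it was with at most 10% mitochondrial UMIs. With equal weight for each cell or each cluster, Duox2 was lower in GFP colonocyte-like cells than in whole-epithelium ones (-0.15 and -0.22), and the log2 ratio of Duoxa2 was no longer past 2-fold (0.10 and 0.08). In GFP the class with most Duox2 was also not fixed: it was goblet-like at a finer clustering, with at most 10% mitochondrial UMIs, with equal weight per cluster, and with the members kept in the clustering.

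Cluster c16 of GFP (371 cells) had the highest levels of that library, at 206 CPM each of Duox2 and Duoxa2. Its leading genes Tgm3, Saa1, Atp12a, Ly6g and Eno3 also led c15 of whole epithelium, which had 32.4 CPM of Duox2, whereas c6 shared Tmigd1, Clca4a and Aqp8 with c3 of GFP. It raised 10 colonocyte markers, but since Ly6g stands on the neutrophil list it kept no class name. Of that list, Ly6g was at 1443 CPM, S100a8 at 57.0 CPM and S100a9 at 10.5 CPM in c16, while the defining neutrophil receptors Csf3r and Cxcr2 had no UMI in its 371 cells. In colonocyte-like cells the list summed to 445 CPM in GFP, with 3 of 8 genes detected, and to 139 CPM in whole epithelium, with 6 of 8 detected. Ly6g made up 440.6 and 138.9 CPM of those sums, and Csf3r and Cxcr2 were at 0 in both. Counting c16 as colonocyte-like gave log2 ratios of 0.84 for Duox2 and 1.33 for Duoxa2.

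**Figure D2:**
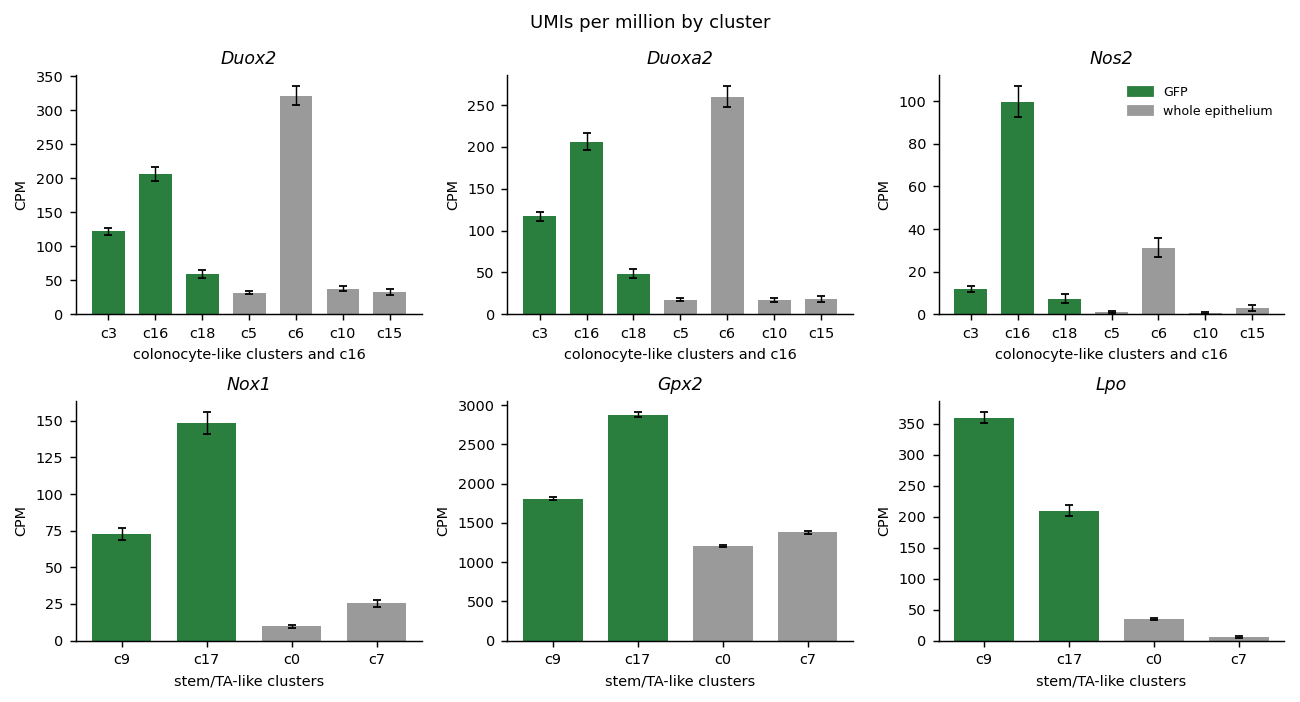
CPM by cluster, GFP in green and whole epithelium in grey, with 95% Poisson limits: Duox2, Duoxa2 and Nos2 in colonocyte-like clusters and the unnamed GFP cluster c16 (upper row), and Nox1, Gpx2 and Lpo in stem/TA-like clusters (lower row). Duox2, Duoxa2 and Nos2 peak in 1 cluster of each library, c16 (206, 206 and 99.6 CPM) and c6 (321, 260 and 31.1 CPM), while Nox1 and Gpx2 peak in c17 and c7.

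Counted per cell, with each cell thinned to 5000 UMIs, a Duox2 UMI was found in 33.6% of 1115 GFP and 20.9% of 2009 whole-epithelium colonocyte-like cells. Thinning left out 46 of 1161 and 401 of 2410 cells, and without it the shares were 63.1% and 39.8%. T/NK-like cells of whole epithelium, which should lack Duox2, had a UMI in 3 of 75 thinned cells and in 6.42% of all 218. These had a median of 4138 UMIs, beside 17708 in colonocyte-like cells. They give a background in a type without the gene for whole epithelium only, since GFP held 3 T/NK-like cells. Much of the signal lay in few cells: the top 10% of whole-epithelium colonocyte-like cells held 78.1% of the Duox2 UMIs and 89.0% of the Duoxa2 UMIs, and those of GFP held 56.5% and 70.4%. In c16, 54.1% of thinned cells had Duox2, 53.2% Duoxa2 and 29.4% Nos2, and in c6 these shares were 51.6%, 39.4% and 8.10%.

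The paired genes were seen in the same colonocyte-like cells. Duoxa2 was detected in 50.4% of the 375 GFP cells with a Duox2 UMI and in 14.5% of the 740 without one. In whole epithelium it was detected in 46.2% of 420 colonocyte-like cells with Duox2 and in 5.48% of 1589 without. Within c6 alone the shares were 65.7% and 11.3%, and within the unnamed c16 they were 61.3% and 43.7%. In the other classes the gap was smaller: in stem/TA-like cells the shares were 21.8% and 19.0% in GFP and 13.6% and 6.35% in whole epithelium, and in goblet-like cells they were 19.8% and 12.1% in GFP and 10.6% and 7.46% in whole epithelium. Nos2 was also met more often beside Duox2 in colonocyte-like cells, in 11.2% against 2.57% of GFP cells and in 9.29% against 0.378% of whole-epithelium cells. Nox1 was rare on both sides: it was seen in 12 of 375 GFP colonocyte-like cells with Duox2 and in 16 of 740 without. In whole epithelium it was seen in 0 of 420 with Duox2, which allows a share of up to 0.714% (3 of 420; exact upper limit 0.874%), and in 7 of 1589 without.

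**Figure D3:**
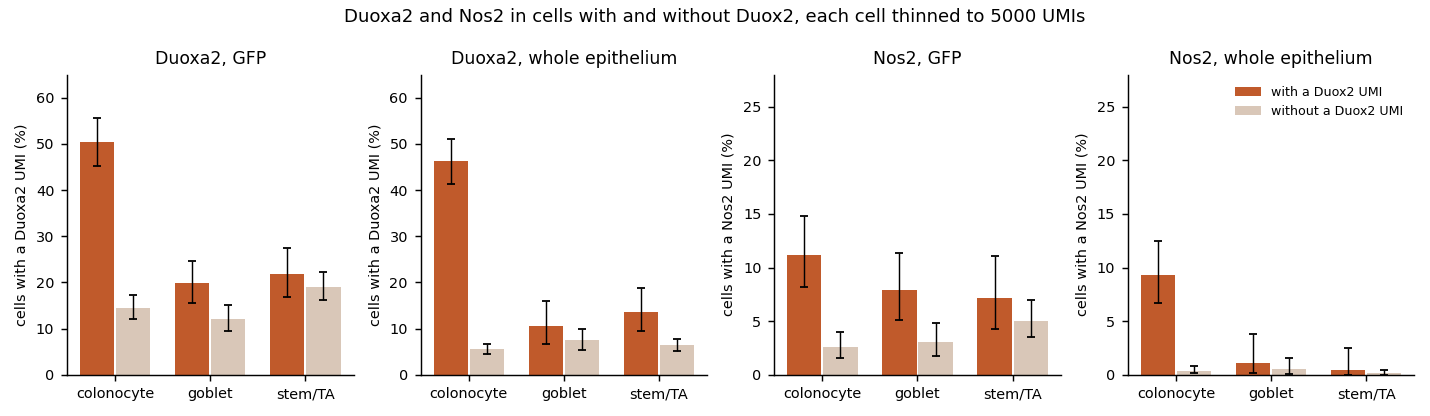
Share of cells with a UMI of Duoxa2 (left pair of panels) or Nos2 (right pair) among cells with (dark) and without (light) a Duox2 UMI, each cell thinned to 5000 UMIs, with exact 95% binomial limits. In colonocyte-like cells Duoxa2 was found in 50.4% of GFP and 46.2% of whole-epithelium cells with Duox2, against 14.5% and 5.48% of those without.

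Nox1, the superoxide-forming oxidase, was highest where Duox2 and Duoxa2 were not. In stem/TA-like cells it was at 100.8 CPM in GFP (97.1 to 104.5) and 14.7 CPM in whole epithelium (13.7 to 15.7), a log2 ratio of 2.78. Goblet-like cells had 42.4 CPM in GFP and 7.76 CPM in whole epithelium (2.45), and colonocyte-like cells 5.08 and 0.789 CPM (2.69). The order stem/TA-like, goblet-like, colonocyte-like held in both libraries with no overlap of intervals, and the ratios of colonocyte-like and stem/TA-like cells differed by less than their counting limits (difference -0.09, limits -0.63 to 0.44). Within stem/TA-like cells, Nox1 was uneven in both libraries: higher in c17 of GFP (148 CPM, led by Trf, Fut9 and Adh1, with Nox1 itself among its leading genes) than in c9 (72.7 CPM, led by cell-cycle genes), and higher in c7 of whole epithelium (25.5 CPM, led by Fut9, Thbs4 and Adh1) than in c0 (9.77 CPM, led by cell-cycle genes). Without c7 the stem/TA-like log2 ratio was 3.37. In whole epithelium the gap over goblet-like cells rests on c7. The limits of c0 alone (8.82 to 10.8 CPM) overlapped those of goblet-like cells (6.56 to 9.11 CPM). Cluster c7 was named from 4 raised stem markers (score 0.752), with 0 markers of its class among its 10 leading genes. Cluster c17 of GFP also had 0 among its own 10. Both GFP clusters, c9 and c17, were named from the cycling list (scores 1.45 and 1.33), not from the stem list. A Nox1 UMI was found in 35.5% of 926 thinned GFP and 6.25% of 1888 thinned whole-epithelium stem/TA-like cells (79.0% and 19.2% without thinning). It was found in 0 of 75 T/NK-like cells of whole epithelium, and in 16 of 76 thinned cells of the shallow unnamed GFP clusters.

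Nox1 is X-linked and the libraries differ in sex. Over 445 X-linked genes with at least 20 UMIs the median log2 ratio was -0.06, 2.70% were at least 2-fold higher in GFP, and 5, Nox1 included, had a ratio at least as large as that of Nox1. Of the genes that overlap Nox1, the same-strand Xkrx was at 0.157 CPM in GFP and 0.152 CPM in whole epithelium.

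Of the partners of NOX1, the activator gene Noxa1 had the same order of the 3 large classes and Noxo1 and Cyba did not. Noxo1, the organizer, varied little over the 3 large classes: 126.1 CPM in GFP and 106.7 CPM in whole-epithelium stem/TA-like cells (log2 ratio 0.24), 124.1 and 110.0 CPM in goblet-like cells (0.17), and 105.1 and 107.0 CPM in colonocyte-like cells (-0.03, interval -0.09 to 0.04). Stem/TA-like and goblet-like levels in GFP were not apart, nor were goblet-like, colonocyte-like and stem/TA-like levels in whole epithelium. Enteroendocrine-like cells had less, 56.2 CPM in GFP and 72.7 CPM in whole epithelium, and T/NK-like cells of whole epithelium had 20.5 CPM.

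Cyba, the membrane subunit shared by NOX1 and the phagocyte oxidase, was at 315.1 CPM in GFP and 195.0 CPM in whole-epithelium stem/TA-like cells (0.69). It was at 203.2 and 150.2 CPM in colonocyte-like cells (0.44) and at 179.3 and 116.3 CPM in goblet-like cells (0.62). Its highest level in whole epithelium was in T/NK-like cells, at 406 CPM, where 78.7% of 75 thinned cells had a UMI. In all kept cells the phagocyte oxidase genes Cybb (0.0829 CPM in GFP and 0.370 CPM in whole epithelium) and Ncf1 (0.193 and 0.884 CPM) were near 0, and the macrophage/dendritic list summed to 5.56 and 26.7 CPM. Noxa1, the activator, was highest in stem/TA-like cells, at 86.8 CPM in GFP and 67.6 CPM in whole epithelium (0.36), and lowest of the 3 large classes in colonocyte-like cells, at 16.1 and 15.3 CPM (0.08). Rac1, whose product binds the activator, was at 362 CPM in GFP and 335 CPM in whole epithelium over all kept cells (0.11).

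Nos2 had few UMIs in every class. In stem/TA-like cells it was at 12.0 CPM in GFP (341 UMIs) and 0.768 CPM in whole epithelium (44 UMIs), a log2 ratio of 3.97. Goblet-like cells had 8.95 CPM in GFP and 1.05 CPM in whole epithelium (3.09, interval 2.44 to 3.83), and colonocyte-like cells 10.4 and 4.98 CPM (1.07). The stem/TA-like ratio was larger than the colonocyte-like ratio by 2.90 on the log2 scale (limits 2.38 to 3.42). Among whole-epithelium colonocyte-like clusters Nos2 was again uneven, at 31.1 CPM in c6 and at 0.984, 0.482 and 2.83 CPM in c5, c10 and c15. Without c6 the colonocyte-like log2 ratio was 3.22, above the goblet-like 3.09 and still under the stem/TA-like 3.97. In GFP no class was apart from the next in order, though the intervals of stem/TA-like and goblet-like cells did not overlap. The highest cluster of GFP was the unnamed c16, with 99.6 CPM. The shallow unnamed clusters c4 and c2 of GFP had 32.0 and 21.1 CPM, more than its stem/TA-like, goblet-like or colonocyte-like cells. The shallow unnamed c1 of whole epithelium had 3.57 CPM. The class with most Nos2 in GFP was not fixed: with c16 counted as colonocyte-like it was colonocyte-like, where the log2 ratio became 2.61. Nos2 was seen in 5.62% of 926 thinned GFP and 0.159% of 1888 thinned whole-epithelium stem/TA-like cells. It was seen in 0 of 75 T/NK-like cells of whole epithelium, which allows a share there of up to 4% (3 of 75, with an exact upper limit of 4.8%).

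Lpo had the largest ratio of the 8 genes over all kept cells, and it was higher in GFP in each of the 4 classes compared. It was at 303.7 CPM in GFP and 25.9 CPM in whole-epithelium stem/TA-like cells (3.55), at 208.0 and 14.2 CPM in goblet-like cells (3.88), and at 119.6 and 23.8 CPM in colonocyte-like cells (2.33). Enteroendocrine-like cells had 38.4 CPM in GFP and 10.9 CPM in whole epithelium (1.82). The 4 classes were apart from each other in GFP, but goblet-like cells were the highest there with at most 10% mitochondrial UMIs and without the barcodes found in both libraries. A coarser clustering left 2 GFP cells in stem/TA-like clusters, too few to compare. There goblet-like cells were the highest in GFP for Lpo, and also for Nox1, Noxo1 and Gpx2. In whole epithelium the stem/TA-like and colonocyte-like levels of Lpo were not apart. No cluster of at least 20 cells crossed the gap apart from enteroendocrine ones: the 10 other GFP clusters ran from 96.3 to 360 CPM, and the highest whole-epithelium cluster, c5, had 38.0 CPM. A Lpo UMI was found in 69.2% of thinned GFP and 9.38% of thinned whole-epithelium stem/TA-like cells (96.5% and 30.5% without thinning). In T/NK-like cells of whole epithelium the share was 1.33% of 75, which gives no background for GFP. Unlike Nox1, it was higher in c9 (360 CPM) than in c17 (209 CPM) of GFP and in c0 (35.0 CPM) than in c7 (5.78 CPM) of whole epithelium. The shallow unnamed clusters had 154 CPM of Lpo in GFP and 21.4 CPM in whole epithelium. With their UMIs per cell subtracted, the log2 ratio was 3.57 in stem/TA-like, 4.15 in goblet-like and 2.24 in colonocyte-like cells.

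Gpx2, the most abundant of the 8 by UMIs, had the same order of classes as Nox1. It was at 2206 CPM in GFP and 1256 CPM in whole-epithelium stem/TA-like cells (0.81), 1417 and 855 CPM in goblet-like cells (0.73), and 321.1 and 178.6 CPM in colonocyte-like cells (0.85). The 3 classes stood apart in both libraries. Within stem/TA-like cells it was again higher in c17 (2877 CPM) than in c9 (1810 CPM) of GFP, and in c7 (1379 CPM) than in c0 (1201 CPM) of whole epithelium. Almost every stem/TA-like cell had a UMI after thinning, 99.5% in GFP and 96.2% in whole epithelium, beside 18 of 75 T/NK-like cells of whole epithelium, which should lack Gpx2.

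**Figure D4:**
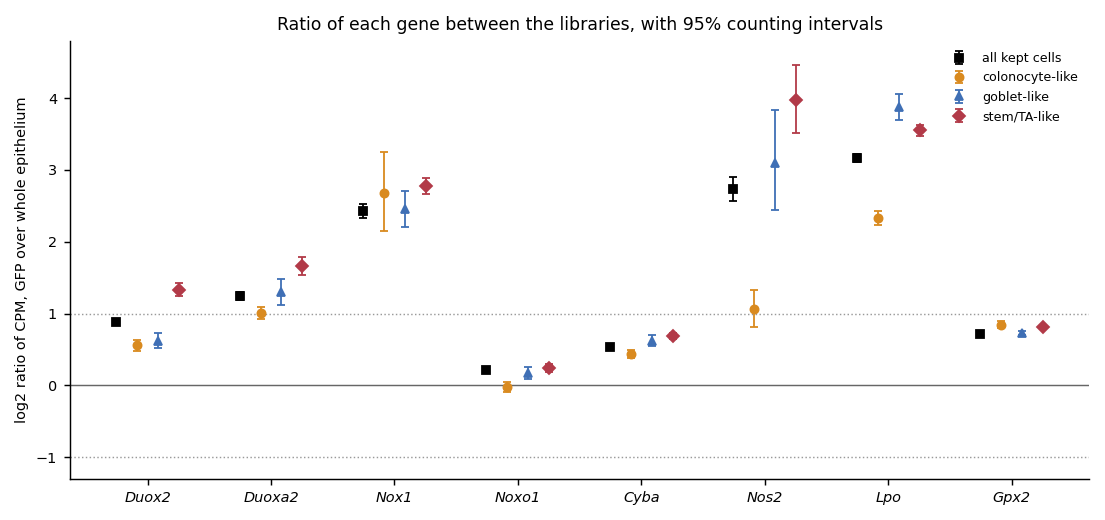
Log2 ratio of CPM, GFP over whole epithelium, of each gene over all kept cells and in 3 classes, with 95% counting intervals; the dotted lines mark 2-fold. At the main setting Duoxa2, Nox1, Nos2 and Lpo lie past 2-fold in every class shown, and Noxo1, Cyba and Gpx2 in none. Nos2 and Lpo are smallest in colonocyte-like cells (1.07 and 2.33), which for Nos2 rests on cluster c6 of whole epithelium.

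By class, 4 of the 8 members were at least 2-fold higher in GFP in colonocyte-like cells (Duoxa2, Nox1, Nos2 and Lpo), where 3.36% of genes were. Duoxa2 was close to the threshold (interval 0.92 to 1.09), and with equal weight per cell or per cluster Duoxa2 and Nos2 (0.15 and 0.09) were under it, which left 2 members. The deep unnamed GFP cluster c8 (567 cells, median 23092 UMIs) is outside these ratios. Its leading genes included Aqp4 and Il18, shared with c10, Fabp6, shared with c5, and Gsdmc4, shared with the stem/TA-like c7. It had 51.9 CPM of Duox2, 39.6 CPM of Duoxa2 and 1030 CPM of Gpx2. Counting it as colonocyte-like would lower the GFP level of Duox2 and Duoxa2 and raise that of Gpx2. The same 4 were past 2-fold in goblet-like cells (3.44% of genes), and in stem/TA-like cells Duox2 joined them to make 5 (3.85% of genes). All 8 were higher in GFP in goblet-like and stem/TA-like cells and 7 in colonocyte-like cells, where the median log2 ratio of all genes was -0.19. In enteroendocrine-like cells 6 members had at least 20 UMIs and only Lpo was past 2-fold (5.48% of genes), with 35 GFP cells behind it. No member was at least 2-fold lower in GFP, which held for 9.48% of genes in colonocyte-like, 5.25% in goblet-like, 6.19% in stem/TA-like and 9.61% in enteroendocrine-like cells. Cyba was lower there in GFP, at 73.9 CPM against 114.9 CPM in whole epithelium (-0.64). Of the 24 pairs of member and large class, 23 had a higher share of cells with a UMI in GFP after thinning, the exception being Noxo1 in colonocyte-like cells (37.3% and 39.8%).

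Other genes of oxidant handling, from lists drawn up with earlier results of these data known, differed in both directions. Of 11 further NADPH oxidase genes, 9 had enough UMIs over all kept cells, 5 higher and 4 lower in GFP, with a median log2 ratio of 0.00. Those past 2-fold were Duoxa1 (higher) and Rac2, Cybb and Ncf1 (lower, as were 10.0% of all genes). Rac2 was also a tuft-like gene here: 19 tuft-like cells held 78 of its 177 GFP UMIs (572 CPM), and it was at 388 CPM in the 11 of whole epithelium. T/NK-like cells, 3 in GFP and 218 in whole epithelium, held 823 of the 974 Rac2 UMIs, 40 of the 51 Cybb UMIs and 100 of the 122 Ncf1 UMIs of whole epithelium, and the T/NK list summed to 5.30 CPM in GFP and 119.4 CPM in whole epithelium. Among 20 peroxide-scavenging enzymes, 7 were higher and 13 lower (median -0.06). Txn1, encoding thioredoxin (3194 CPM in GFP and 2227 CPM in whole epithelium, 0.52), was the highest by ratio, and Selenop, the plasma selenium carrier (62.7 and 220.0 CPM, -1.81), was among the lowest. Of 17 genes of glutathione supply and NRF2, 9 were higher and 8 lower (median 0.04). Me1, malic enzyme, a cytosolic source of NADPH, stood out at 25.7 CPM in GFP and 6.86 CPM in whole epithelium (1.91), and haem oxygenase, Hmox1, was at 1.21 and 2.75 CPM (-1.19).

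Of 6 other haem peroxidases 4 had enough UMIs, 3 higher and 1 lower in GFP, all under 1 CPM. Mpo, the neutrophil peroxidase, had 19 UMIs in GFP and 1 in whole epithelium (log2 ratio 4.59, interval 1.94 to 9.97).

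Genes around nitric oxide, 16 listed and 15 with enough UMIs, were 8 higher and 7 lower (median 0.03). Gch1, which makes the tetrahydrobiopterin cofactor of nitric oxide synthases, was at 47.4 CPM in GFP and 32.7 CPM in whole epithelium (0.54), and in colonocyte-like cells at 106.1 and 54.3 CPM (0.97). Its regulator Gchfr was at 41.9 and 21.5 CPM in colonocyte-like cells (0.97). Of 17 inducing receptors and signalling genes, 7 were higher and 10 lower over all kept cells. Nfkbiz was at 99.6 CPM in GFP and 57.1 CPM in whole epithelium (0.80). Of 12 other defence genes, 4 were higher and 8 lower over all kept cells (median -0.34), where 8173 of all 15223 genes were lower. In colonocyte-like cells 3 were higher and 9 lower (median -1.18), where 8435 of all 12337 genes were lower. Past 2-fold lower there were 7 of the 12, against 9.48% of all genes. The bactericidal lectins Reg3b (1288 CPM in GFP and 12105 CPM in whole-epithelium colonocyte-like cells, -3.23) and Reg3g (438 and 2135 CPM, -2.28) were the lowest. In stem/TA-like cells Lcn2, a siderophore-binding protein, was higher in GFP (9.37 and 2.53 CPM, 1.89) while Reg3b was lower (1588 and 9486 CPM, -2.58).

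The genes most like each member were taken by the mean of the libraries' Pearson correlations of log2(CPM + 10) over 11 GFP and 15 whole-epithelium clusters, which share libraries and depth and give no test. Duox2 was most like Duoxa2 (0.84 in GFP and 0.93 in whole epithelium), then the interferon-induced Gbp2 (0.78 and 0.88) and Spats2l (0.85 and 0.76). Duoxa2 and Nos2 were both most like Ubd (0.85 and 0.93 for Duoxa2, 0.91 and 0.92 for Nos2), with Ripk3 next for Duoxa2 and the guanylate-binding Gbp3 and Gbp2 for Nos2. Nox1 was most like Smoc2, a stem-cell marker used in naming the clusters (0.95 and 0.91), and Gpx2 was most like the potassium channel subunit Kcne3 (0.98 in both). Lpo was most like the methionine sulfoxide reductase Msra (0.83 and 0.89), Noxo1 like the lymphotoxin receptor Ltbr (0.91 and 0.94), and Cyba like Fau, which encodes a ubiquitin-like and ribosomal fusion protein, (0.81 and 0.91). Between members, Nox1 and Gpx2 correlated at 0.92 in GFP and 0.77 in whole epithelium, Duox2 and Nos2 at 0.76 and 0.89, and Duox2 and Nox1 at -0.07 and -0.26. Lpo and Gpx2 correlated at 0.75 in GFP but at 0.19 in whole epithelium.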

How the data were processed

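The authors deposited UMI counts per gene and barcode for 2 libraries (10x Genomics droplets, 3′ chemistry per the labels' protocols), made with Cell Ranger on mm10, 2.1.1 per the submitters' processing notes and 3.1.0 per the file headers. Call settings and strand use are not given in the sources used here. The matrices are crossed between the sample records. Each was given to the sample whose barcode list has its number of columns, and every direction rests on this. Cells were barcodes with 500 or more genes, 1000 or more UMIs and a mitochondrial share up to 25%. Scrublet called 1 cell in GFP and 0 in whole epithelium; this was read as a failed run, and no doublets were removed. Counts scaled to 10000 were clustered jointly in scanpy 1.11.5 (2000 variable genes without the members and pathway lists, 30 components, 15 neighbours, leidenalg 0.10.2 at resolution 1.0).

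Clusters were named by the mean log2 fold of marker lists over the median of that library's clusters (at least 3 markers raised 2-fold, score of at least 0.5). Clusters led by more markers of another list than of their own stayed unnamed, as did clusters under 20 cells. Clusters with a median UMI count under 1/3 of their library's (shallow) needed a score of 1.5 and a marker of their class among their 10 leading genes. They also needed a marker score of at least 1 in UMIs per cell. By that last rule c2 and c4 of GFP (942 and 779 cells) stayed unnamed. They raised 12 and 10 goblet markers (scores 2.06 and 1.99), with per-cell scores of -0.487 and 0.0513. The rule was chosen with the data in view, and members and lists were chosen with earlier results of these data known. CPM carry exact Poisson limits, ratios exact conditional binomial limits and shares exact Clopper-Pearson limits (95%), which cover counting error only. Beside these limits, a count of 0 was taken to allow up to 3. Genes needed 20 UMIs in both libraries together. Genes named beside the members were drawn from the 3 highest and 3 lowest of each pathway list, their direct partners, and the 3 genes most like each member among those with at least 500 UMIs in each library (Nos2 itself had fewer). Of the genes so drawn, 1 is not reported here. Where a named gene overlaps a member, antisense reads could not be told apart: in GFP and whole epithelium, Tbl3 (Noxo1) had 13.6 and 17.8 CPM, Fntb (Gpx2) 10.4 and 11.5 CPM and Cstf2 (Nox1) 21.0 and 22.4 CPM.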

Additional observations from a re-analysis of the deposited data

Results flagged for a closer look

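Cyba stood out because its GFP-over-whole-epithelium ratio changed sign between classes, with counting intervals on opposite sides of 0. Its log2 ratio was -0.64 in enteroendocrine-like cells, beside 0.44 in colonocyte-like, 0.62 in goblet-like and 0.69 in stem/TA-like cells. The enteroendocrine-like values rest on 25 UMIs in 35 GFP cells and 169 UMIs in 293 whole-epithelium cells, and the difference was not tested over animals. The sign turned without shallow clusters (0.259), and in c23, the enteroendocrine-like cluster with at least 20 cells of both libraries, Cyba was at 90.3 CPM in GFP and 75.4 CPM in whole epithelium, with overlapping intervals.

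The barcodes outside the cell filter, 7808 in GFP and 6205 in whole epithelium, were not used in the comparisons above and still held member UMIs. Their median share of mitochondrial UMIs was 45.5% in GFP and 40.7% in whole epithelium. The log2 ratio in them was 2.52 for Nox1, 2.13 for Lpo, 1.33 for Gpx2, 1.09 for Nos2, 0.62 for Cyba, 0.27 for Duox2, 0.25 for Duoxa2 and -0.10 for Noxo1. Duox2 was at 213 CPM in the GFP and 177 CPM in the whole-epithelium barcodes outside the filter, above its level over all kept cells of either library (93.4 and 50.7 CPM).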

How the results depend on the processing

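Of 106 recomputed counts and shares, 93 kept their direction and size. By that measure 332 of 516 recomputed log2 ratios of single members stayed the same, 181 moved and 3 reversed. By direction alone, 493 of the 516 ratios had that of the main setting. The 4 colonocyte-like members past 2-fold became 2 with equal weight per cell and 2 with equal weight per cluster, where the log2 ratio of Duox2 reversed to -0.147 and -0.224. The single enteroendocrine-like member past 2-fold became 3 at Leiden resolution 2.0, 2 with no minimum of UMIs, and 0 with at most 10% mitochondrial UMIs, without shallow clusters or with a minimum of 100 UMIs. Without shallow clusters Cyba reversed there to 0.259. The class with the highest level in GFP stayed for only 2 of 8 members at resolution 0.5, where 2 GFP cells were left in stem/TA-like clusters, and for 5 of 8 with at most 10% mitochondrial UMIs. The excess of Duoxa2 detection in Duox2-positive over Duox2-negative cells (35.9 points in GFP colonocyte-like cells) was 25.3 points at 2000 UMIs. In goblet-like cells it was 7.67 points in GFP and 3.12 points in whole epithelium, -0.173 points in GFP at 2000 UMIs, and 27.4 and 15.8 points without thinning, where depth differs between cells. The causes of the other changes were not tested. Ratios over the alternatives ran from 2.20 to 3.37 for Nox1, 3.04 to 3.80 for Lpo and 3.59 to 5.17 for Nos2 in stem/TA-like cells, and from -0.224 to 1.63 for Duox2 and 0.0947 to 3.81 for Nos2 in colonocyte-like cells. Gpx2, under 2-fold at the main setting, ran from 0.719 to 1.69 in colonocyte-like, 0.638 to 0.911 in goblet-like and 0.547 to 1.07 in stem/TA-like cells. Leaving out or adding single clusters and subtracting the UMIs of shallow clusters were chosen after seeing the data. Subtraction of T/NK-like UMIs gave no ratio, as GFP held 3 such cells, and tuft-like cells (19 in GFP and 11 in whole epithelium) were too few to compare. No paired analysis was possible because each group has 1 library. Low UMI counts limit Nos2 in every class and all members in enteroendocrine-like cells.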
